A study of Mus musculus with 7 samples.

Results

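The genes described here encode 10 glycosyltransferases listed together for the sugar chains read by selectins, although not all of them make these chains. They are the fucosyltransferases Fut4 and Fut7, the sialyltransferases St3gal1, St3gal2, St3gal4, St3gal5, St3gal6 and St6gal1, the galactosyltransferase B4galt1 and the core 2 branching enzyme Gcnt1. They were found by gene symbol among 18139 measured genes, each with 1 probe set that the array annotation does not mark as cross-hybridising. The set was chosen by the measured OVA minus saline differences of Fut4 and St3gal5, which were lower after OVA, so all OVA minus saline values of these 10 genes are a description and support no test. RNA was measured on 7 arrays of eosinophils, sorted by flow cytometry, of inbred BALB/c mice whose lungs were challenged with saline (4 libraries) or the allergen OVA (3 libraries). The labels used here give no age, dose or schedule, and do not say whether a library is 1 animal or a pool, so errors measure only the spread between these libraries.

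Selectins are lectins that let flowing leukocytes roll on vessel walls. Their ligands carry sialyl Lewis x, a cap made of sialic acid and fucose on a lactosamine chain, mostly on core 2 O-glycans of mucin-like proteins such as PSGL-1, the product of Selplg. Gcnt1 starts the core 2 branch, B4galt1 adds galactose to make lactosamine, St3gal4 and St3gal6 add the sialic acid, and Fut7 with Fut4 add the fucose. St3gal1 and St3gal2 cap the core 1 O-glycan, St6gal1 adds sialic acid to lactosamine in another linkage, and St3gal5 acts on lipids: it makes the ganglioside GM3 from lactosylceramide, and so is not itself a selectin ligand enzyme.

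Promoter windows are shown for the 3 genes that limma called lower in the contrast that chose the set. Whether these genes share a control was not tested. Each runs from 250 bases before to 50 bases after an annotated start, 5′ to 3′ on the gene's strand, from RefSeq (GRCm38.p6). Capitals mark matches, on either strand, to any of 6 motifs. The GC box was searched as GGGCGG, and the CCAAT box by the letters of its name. The letters were TATAAA for the TATA box and AGATAA for a motif of GATA factors. An Ets factor motif was searched as GGAAGT, and the E-box bound by Myc as CACGTG.
Fut4, chr9:14752073-14752372, minus strand: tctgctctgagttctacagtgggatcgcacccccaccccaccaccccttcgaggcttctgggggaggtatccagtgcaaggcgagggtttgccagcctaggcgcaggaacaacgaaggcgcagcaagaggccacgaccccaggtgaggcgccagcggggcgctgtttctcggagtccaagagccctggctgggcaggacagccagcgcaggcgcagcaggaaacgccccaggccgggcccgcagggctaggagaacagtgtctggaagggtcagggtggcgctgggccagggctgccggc
St3gal5, chr6:72097358-72097657, plus strand: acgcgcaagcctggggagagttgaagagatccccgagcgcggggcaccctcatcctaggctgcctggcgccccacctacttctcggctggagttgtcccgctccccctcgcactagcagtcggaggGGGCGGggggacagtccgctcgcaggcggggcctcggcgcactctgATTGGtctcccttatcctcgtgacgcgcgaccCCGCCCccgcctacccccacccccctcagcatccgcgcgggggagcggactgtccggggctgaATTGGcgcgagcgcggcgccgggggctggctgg
St3gal6, upstream start, chr16:58524204-58524503, minus strand: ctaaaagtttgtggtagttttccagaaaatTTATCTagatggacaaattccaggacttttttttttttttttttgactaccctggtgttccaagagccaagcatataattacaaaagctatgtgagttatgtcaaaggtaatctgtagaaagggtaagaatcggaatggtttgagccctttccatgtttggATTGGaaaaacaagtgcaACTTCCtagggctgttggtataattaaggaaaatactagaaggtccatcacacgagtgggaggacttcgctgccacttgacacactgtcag
St3gal6, downstream start, chr16:58523377-58523676, minus strand: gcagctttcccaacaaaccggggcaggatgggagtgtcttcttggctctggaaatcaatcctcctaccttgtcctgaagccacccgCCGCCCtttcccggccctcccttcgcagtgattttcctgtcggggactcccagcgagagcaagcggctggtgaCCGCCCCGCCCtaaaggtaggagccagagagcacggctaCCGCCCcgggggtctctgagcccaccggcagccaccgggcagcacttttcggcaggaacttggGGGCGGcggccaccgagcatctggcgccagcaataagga
The Fut4 window held none of the 6 motifs, and was the only 1 of 14 windows of these genes without any. The St3gal5 window held 2 GC boxes and 2 CCAAT boxes, and the downstream St3gal6 window 5 GC boxes, of which 2 overlap by a base. The upstream St3gal6 window held 1 CCAAT box, 1 GATA motif and 1 Ets motif. Over all 32851 RefSeq promoter windows, 35.7% held a GC box, 37.4% a CCAAT box, 11.2% the GATA motif and 23.8% the Ets motif. The TATA box and the E-box, present in 13.6% and 7.15% of all windows, were in none of these 4. GC content was 68% in the Fut4 window, 72.7% in that of St3gal5, and 38.7% and 64.7% in the upstream and downstream windows of St3gal6, against a median of 52.7% over all windows. The CpG count was 18 for Fut4, 33 for St3gal5, and 3 and 20 for St3gal6, with a median of 7. Windows were available for 8 of the 10 genes. Genes that were not called had such motifs too. B4galt1 held 5 GC boxes and St3gal4 held 3, and CCAAT boxes were in windows of Fut7, Gcnt1 and St6gal1.

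Levels are log2 RMA values, in which a difference of 1 is a 2-fold change, summarised by the mean ± SD of a group, and each difference subtracts saline from OVA and carries the standard error (SE) of the limma fit. Negative control probe sets mark the level without a target: their median was 5.86 to 5.95 in the saline libraries and 6.04 to 6.17 in the OVA libraries. Of 10 eosinophil markers, 10 were above that level in their mean, 4 were called higher in OVA (Siglecf, Epx, Prg2 and Cebpe) and 0 lower. Of those not called, Prg3 had every OVA library below every saline library (-0.57, SE 0.19). Alox15 (0.33) and Csf2rb (0.14) had every OVA library above, and Il5ra differed by -0.35. Ccr3, the eotaxin receptor, had a mean of 11.98 in saline and 11.84 in OVA. Yet 0 of 9 neutrophil and 0 of 7 T cell markers had a mean below that level either, and only 5250 of all 18139 genes did. The count above the controls thus does not tell eosinophils from other cells. Saline 1 and 2 separated positive from negative controls less well than saline 3 and 4 (area under the curve 0.81 and 0.80 against 0.843 and 0.845), so values of many genes are also given without them. A name such as saline 2 gives a library's group and replicate.

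Of the 10 genes, 3 were called lower (Fut4, St3gal5 and St3gal6) and 0 higher by limma (adjusted p under 0.05 after Benjamini-Hochberg), where 1.17% of all 18139 genes were called lower, 5.31% higher and 6.49% in either direction. At an unadjusted p under 0.05, St3gal1 was also lower and Gcnt1 higher. In 4 genes every OVA library lay below every saline library, as in 8.61% of all genes, and in 1, Gcnt1, every OVA library lay above, as in 11% of all genes. The median difference of the 10 genes was -0.041, and that of all genes -0.07. Since this contrast chose the set, nothing is read from these counts. In bulk RNA, fewer cells of a kind and less RNA per cell cannot be told apart.

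**Figure D1:**
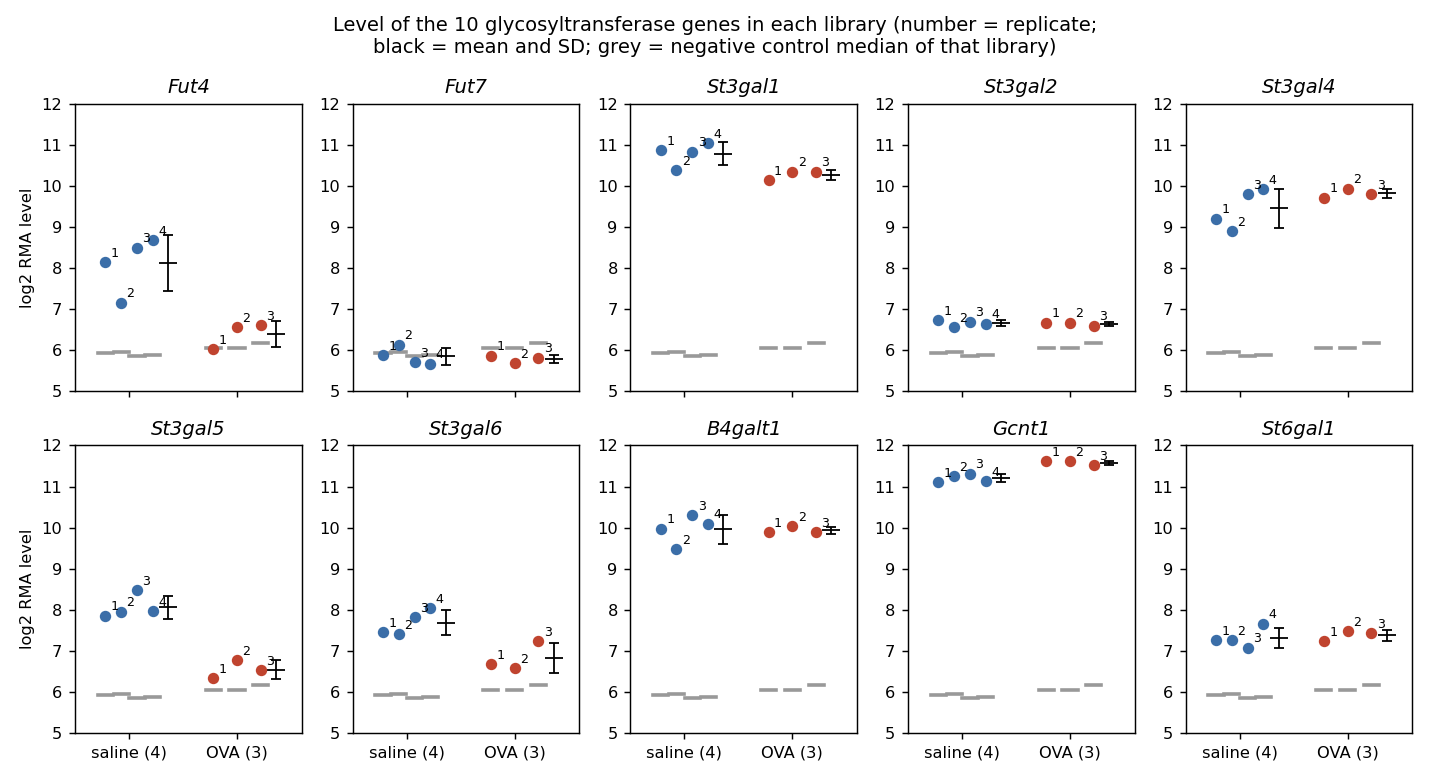
Log2 RMA level (vertical axis) of each of the 10 genes in the 4 saline (blue) and 3 OVA (red) libraries, numbered by replicate, with mean and SD in black and each library's negative control median in grey. Fut4 and St3gal5 drop towards the grey lines in OVA, Fut7 sits on them in both groups, and St3gal4 is split between saline 1 and 2 and the other libraries.

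The fucosyltransferase genes differed in whether they were detected at all. Fut4, which adds fucose to inner and terminal lactosamine, was 8.14, 7.15, 8.49 and 8.67 in saline 1 to 4, and 6.02, 6.55 and 6.60 in OVA 1 to 3. All saline libraries lay above all OVA libraries, but saline 2 was low, and the groups stood 0.55 apart. OVA 1 was at its own negative control median of 6.04 and OVA 2 and 3 lay not far above theirs of 6.05 and 6.17, so the size of the fall is uncertain. Fut4 fell by 1.72 (SE 0.33) on the log2 scale, 3.3-fold, from 8.11 ± 0.68 to 6.39 ± 0.32, the 5th lowest difference of all genes. Without saline 1 and 2 the fall was larger, with a difference of -2.19 (SE 0.18). Fut4 was not called when any single OVA library was left out: the difference was -1.54 without OVA 1, -1.80 without OVA 2 and -1.83 without OVA 3, with limma adjusted p of 0.0677, 0.0528 and 0.0584, in a range of 0.000632 to 0.266 over 17 alternatives.

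Fut7, the leukocyte enzyme most tied to selectin ligands in mice, lay below the negative control median in all libraries but saline 2. Its level was 5.67 to 6.13 in saline and 5.68 to 5.86 in OVA, with means of 5.85 and 5.78. In saline 2 the value of 6.13 was above that library's control median of 5.95, and the OVA libraries were all below theirs. A fall of Fut7 could not have been seen at this level.

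Among enzymes that add sialic acid, St3gal5, the GM3 synthase, was 7.85, 7.95, 8.47 and 7.97 in saline 1 to 4, and 6.33, 6.77 and 6.53 in OVA 1 to 3. The groups were 1.08 apart, the widest gap among the 10 genes, and saline 3 was the highest library. St3gal5 fell by 1.52 (SE 0.17), 2.86-fold, from 8.06 ± 0.28 to 6.54 ± 0.22, the 9th lowest difference of all genes. It was called under all 17 alternatives, with differences from -1.68 to -1.36. In OVA 1, 2 and 3 it lay 0.29, 0.72 and 0.36 above the negative control median, so the size of its fall is also uncertain.

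St3gal6, which caps lactosamine in selectin ligands, was 7.45, 7.41, 7.82 and 8.04 in saline 1 to 4, and 6.68, 6.57 and 7.24 in OVA 1 to 3. The groups did not overlap but OVA 3 came within 0.17 of saline 2. St3gal6 fell by 0.85 (SE 0.20), from 7.68 ± 0.30 to 6.83 ± 0.36. The call was lost without saline 1 (-0.93), saline 3 (-0.80), saline 4 (-0.73), OVA 1 (-0.78) or OVA 2 (-0.72), without saline 3 and 4 together (-0.60), after median centring (-0.82) and by limma's treat, which tests against a 1.5-fold change, and held without saline 1 and 2 together (-1.10, SE 0.20).

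St3gal1, which caps the core 1 O-glycan and so competes with core 2 branching, was 10.86, 10.38, 10.83 and 11.04 in saline, and 10.13, 10.34 and 10.34 in OVA. The groups only just failed to overlap, by 0.04, with saline 2 as the lowest saline library. The difference was -0.51 (SE 0.16) and not called. It was called lower without saline 2 (-0.64) and without saline 1 and 2 (-0.67, SE 0.12).

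Gcnt1, the core 2 branching enzyme, was 11.10, 11.25, 11.31 and 11.13 in saline, and 11.61, 11.61 and 11.52 in OVA. Every OVA library was above every saline library, by 0.21, and spread within groups was small. The difference was 0.38 (SE 0.10), 1.3-fold and not called. Leaving out single libraries gave 0.35 to 0.42, and the value was 0.36 without saline 1 and 2.

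St3gal4, the main sialyltransferase of selectin ligands in mouse neutrophils, was 9.20 and 8.89 in saline 1 and 2, 9.79 and 9.91 in saline 3 and 4, and 9.71, 9.93 and 9.80 in OVA. Saline 3 and 4 were thus at the OVA level and saline 1 and 2 below it. The difference was 0.37 (SE 0.23) over all libraries and not called. It was -0.037 (SE 0.11) without saline 1 and 2, and 0.77 (SE 0.14), called higher, without saline 3 and 4.

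In 5 of the 10 genes (Fut4, St3gal4, St3gal5, St3gal6 and B4galt1) saline 1 and 2 both lay below saline 3 and 4, as in 22.8% of all genes. Both lay above in 1 of the 10 genes. Among all 18139 genes, both lay below in 4136 and above in 5752. The mean of saline 3 and 4 was higher by 0.94 for Fut4 and by 0.81 for St3gal4, while for St3gal2 and Gcnt1 it was higher by only 0.025 and 0.045. Among the 10 genes, 6 had their lowest saline value in saline 2, where 26% of all genes had theirs. Saline 1 and 2 both lay below saline 3 and 4 in 4 of 10 eosinophil markers, and both above in 0. Counts below and above were 3 and 1 of 12 alveolar macrophage markers and 2 and 5 of 9 neutrophil markers. For T cell markers they were 2 and 2 of 7, and for monocyte markers 2 and 1 of 6. Epithelial markers gave 2 and 2 of 6, B cell markers 1 and 1 of 6, and endothelial markers 1 and 2 of 5. S100a8, a calprotectin subunit abundant in neutrophils, was 7.38 and 7.09 in saline 1 and 2 against 9.97 and 9.71 in saline 3 and 4. S100a9, its partner, was 9.63 and 9.71 against 11.42 and 11.35. Other neutrophil markers had the opposite order: Ngp was 7.19 and 6.88 against 6.71 and 6.38, and Retnlg 12.82 and 12.75 against 12.62 and 12.65. Cd3d, a T cell receptor subunit, was 8.51 and 8.87 against 9.80 and 9.65. The part of other cells, or of the control separation of saline 1 and 2, in this split was not tested.

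**Figure D2:**
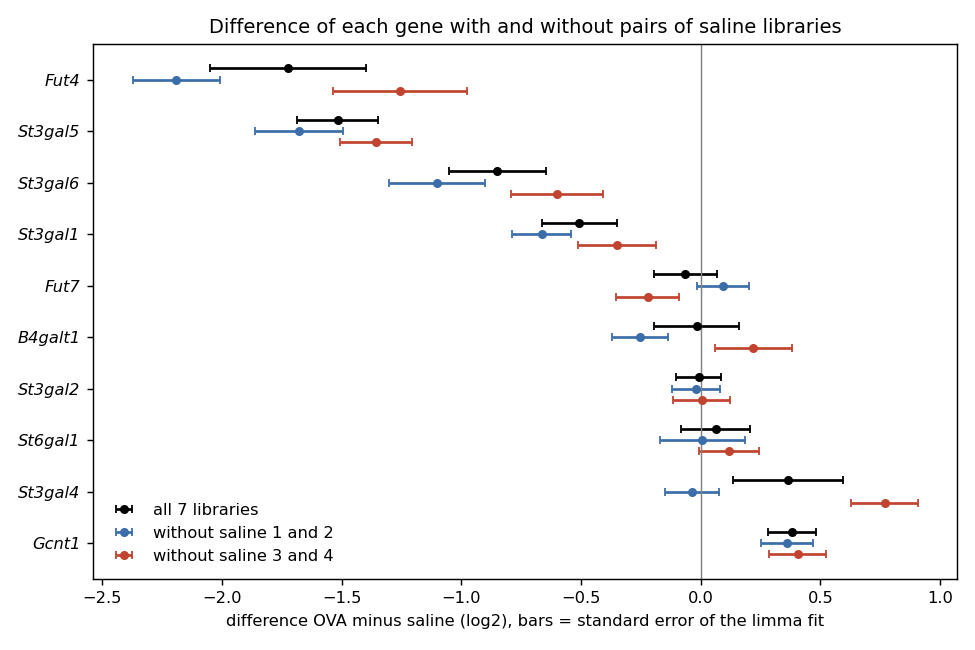
Difference OVA minus saline on the log2 scale (horizontal axis, bars are SE) for each gene over all 7 libraries (black), without saline 1 and 2 (blue) and without saline 3 and 4 (red). Fut4, St3gal5, St3gal6 and St3gal1 lie below 0 and Gcnt1 above 0 in each set of libraries, while St3gal4 moves from -0.037 to 0.77 and B4galt1, Fut7 and St3gal2 change sign.

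The other 3 detected genes had overlapping groups. B4galt1, which makes lactosamine, ranged from 9.47 to 10.30 in saline and 9.89 to 10.04 in OVA, and the 95% interval of its difference was -0.42 to 0.38. St6gal1 ranged from 7.08 to 7.66 and 7.23 to 7.47, with an interval of -0.26 to 0.39. St3gal2, which caps core 1 glycans and gangliosides, ranged from 6.56 to 6.72 and 6.59 to 6.67, with an interval of -0.22 to 0.21. These intervals leave room for changes of moderate size in B4galt1 and St6gal1. St3gal2 lay only 0.42 to 0.83 above the negative control medians of the libraries, so its narrow interval does not show that it was unchanged.

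The genes whose profile over the 7 libraries was most like that of Fut4 were Mmp9, a gelatinase, Ifitm6 and Clec2i. Likeness is the root mean square difference of log2 values, each gene centred on its own mean, and was 0.23, 0.248 and 0.317, where a flat profile differed from Fut4 by 0.976. St3gal5 was only the 18th closest to Fut4, at 0.44, and Fut4 was only the 85th closest to St3gal5. Closest to St3gal5 were Smad3, a transcription factor of TGF-beta signalling, Ston2, an endocytic adaptor, and Isg20, an exonuclease, at 0.224, 0.254 and 0.273, against 0.781 for a flat profile. Both orders rest largely on the step between groups that all these genes share.

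Beyond the set, 111 measured genes of 9 lists of glycan synthesis and its carriers were compared, none of them among the 10. Of these, 6 were called higher and 6 lower by limma, which is 5.41% each, against 5.31% and 1.17% of all genes. By treat against a 1.5-fold change, Cd34 and Casd1 were the only ones of the 111 called. The median difference was -0.098, against -0.07 over all genes. Adjusted p-values below are from limma over all 18139 genes. Of 13 other sialyltransferases and 7 other fucosyltransferases 0 were called in either direction, with differences from -0.28 to 0.23 and -0.27 to -0.066, and 5 and 3 of them had a mean below the negative controls. St8sia4, a polysialyltransferase, differed by -0.13.

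**Figure D3:**
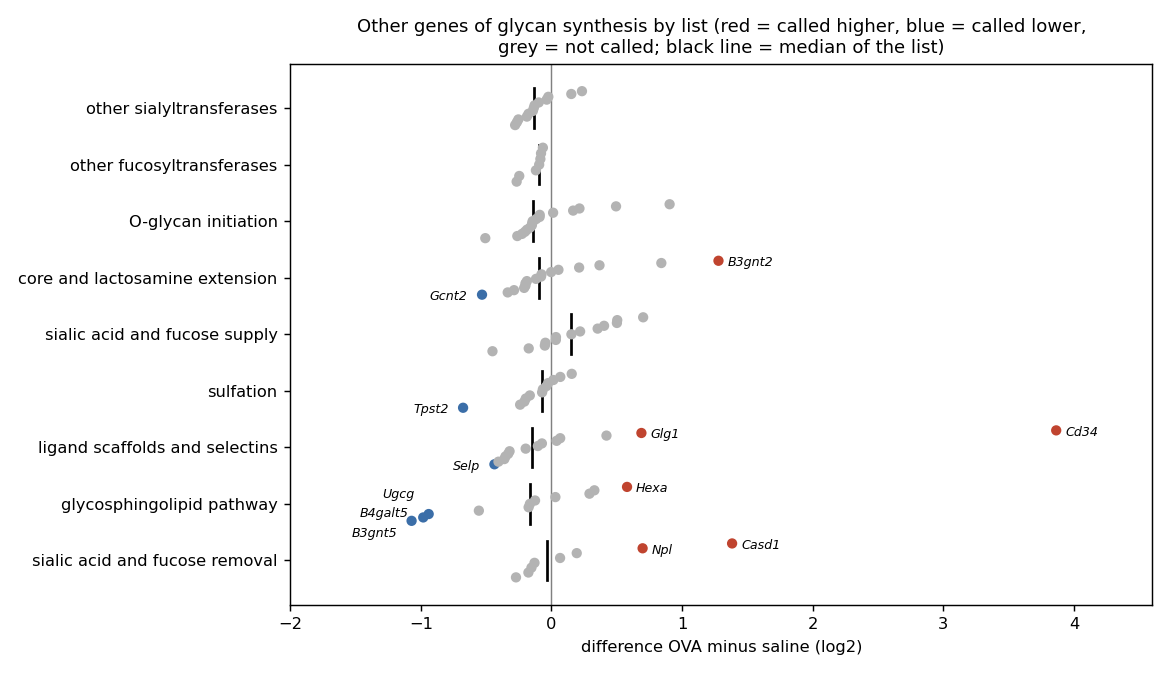
Difference OVA minus saline on the log2 scale (horizontal axis) of the 111 other glycan genes, 1 point a gene, by list (rows), with called genes named and coloured and the list median as a black line. Medians lie between -0.165 and 0.15, and the glycosphingolipid list holds 4 called genes and that of ligand scaffolds and selectins 3.

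In the glycosphingolipid list, which holds the enzymes around St3gal5, 3 of 11 genes fell and 1 rose. Of all genes, 1.17% were called lower and 5.31% higher. Ugcg, which makes glucosylceramide, the first step of the route to GM3, was 9.51, 9.36, 9.52 and 9.61 in saline and 8.34, 8.69 and 8.65 in OVA. It fell by 0.94 (SE 0.12, limma adjusted p = 0.00214). B4galt5, which makes the lactosylceramide that St3gal5 uses, was 11.68, 11.46, 11.15 and 11.33 in saline and 10.33, 10.38 and 10.56 in OVA. It fell by 0.98 (SE 0.14, limma adjusted p = 0.00339). In both genes every OVA library was below every saline library, as for St3gal5 and in 8.61% of all genes. The 3 enzymes act in successive steps from ceramide to GM3. However, St3gal5 was chosen for its fall, and the list was drawn up with earlier results of these data known. Whether the 3 genes changed as a route was not tested.

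B3gnt5, which draws lactosylceramide into another glycolipid series, fell by 1.07 (SE 0.19, limma adjusted p = 0.00968) from 8.64 ± 0.29. Ugcg, B4galt5 and B3gnt5 kept their calls without any single library and without saline 1 and 2 (-1.01, -0.82 and -1.21), but lost them by treat (adjusted p = 0.505, 0.556 and 0.77). B4galnt1, which extends GM3, was 8.79 ± 0.40 in saline and 9.11 ± 0.18 in OVA, and B4galt6, a second lactosylceramide synthase, differed by 0.03. Hexa, which encodes a lysosomal enzyme that breaks down gangliosides, rose by 0.58 (SE 0.14, limma adjusted p = 0.0362). Hexa lost its call without saline 1 or any single OVA library (0.55 to 0.62), and without saline 1 and 2 (0.41). The median of the list was -0.165.

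**Figure D4:**
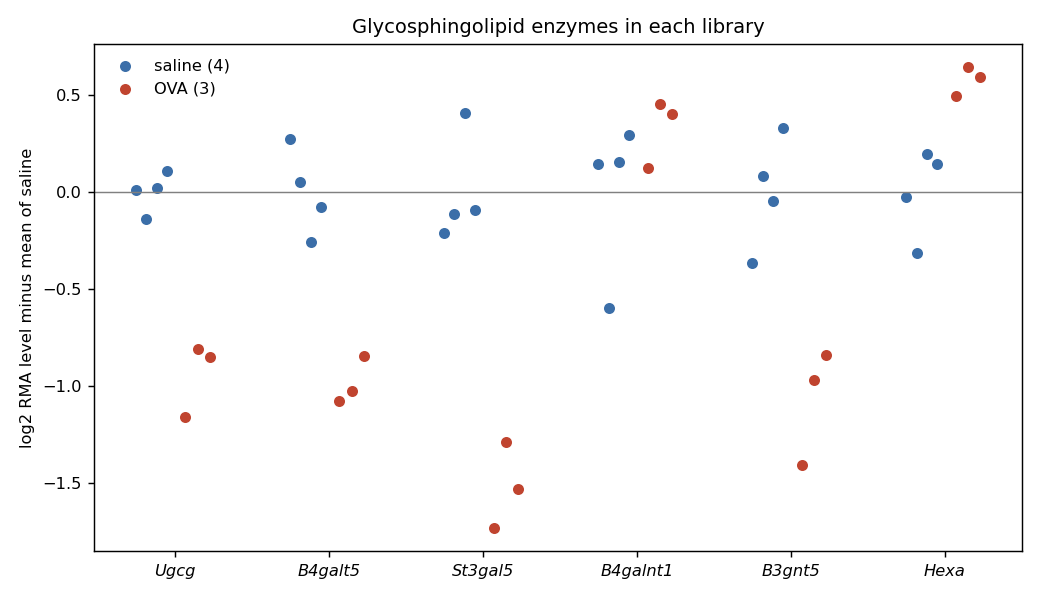
Log2 RMA level minus the mean of saline (vertical axis) of St3gal5 and 5 other glycosphingolipid enzymes in each saline (blue) and OVA (red) library. Ugcg, B4galt5, St3gal5 and B3gnt5 are lower in all 3 OVA libraries, Hexa is higher, and B4galnt1 overlaps.

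Among carriers of selectin ligands and the selectins themselves, 2 of 14 genes rose and 1 fell, with a median of -0.15. Selplg, which encodes the main carrier on leukocytes, was 10.15, 9.76, 10.27 and 10.63 in saline and 10.37, 10.79 and 10.71 in OVA, and was not called (0.42, SE 0.19, limma adjusted p = 0.254). The difference was 0.17 without saline 1 and 2, not called, and 0.67, called higher, without saline 3 and 4. Glg1, the E-selectin ligand ESL-1 of mice, rose by 0.69 (SE 0.17, limma adjusted p = 0.0394), and was not called without saline 1, saline 3 or any single OVA library (0.59 to 0.78) or without saline 1 and 2 (0.51). Cd34, a sialomucin, rose by 3.86 (SE 0.10, limma adjusted p = 1.38e-07) from 5.98 ± 0.07, a level not clearly above the negative controls, so the value is a lower bound of the rise. Without saline 1 and 2 its difference was 3.82, still called. The adhesion receptor Cd44 was 10.76 ± 0.17 and 10.69 ± 0.22. Selp, the P-selectin of platelets and endothelium, fell by 0.44 (SE 0.10, limma adjusted p = 0.0383), and was not called without saline 1, saline 3, saline 4 or any single OVA library (-0.51 to -0.40). Selp kept its call without saline 1 and 2 (-0.50) and lost it without saline 3 and 4 (-0.38).

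In the list of core and lactosamine extension 1 of 16 genes rose and 1 fell. B3gnt2, which elongates lactosamine chains, rose by 1.28 (SE 0.33, limma adjusted p = 0.0499), with saline 2 low at 8.24 against 9.39 to 9.89 in the other saline libraries. It was not called without saline 1, saline 3 or any single OVA library (1.24 to 1.39), but was called without saline 1 and 2 (0.81). Gcnt2, which branches lactosamine, fell by 0.53 (SE 0.14, limma adjusted p = 0.0494), and was not called without saline 1, saline 3, saline 4 or any single OVA library (-0.57 to -0.45). Gcnt2 kept its call without saline 1 and 2 (-0.56) and lost it without saline 3 and 4 (-0.50). C1galt1, the core 1 synthase whose product Gcnt1 branches, was 7.09 and 7.45 in saline 1 and 2, 8.69 and 8.58 in saline 3 and 4, and 8.59, 8.97 and 8.82 in OVA. The same division of the saline libraries as for St3gal4 is seen, and C1galt1 was not called (0.84, SE 0.36). The difference was 0.16 without saline 1 and 2, not called, and 1.52, called higher, without saline 3 and 4.

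Of 12 sulfation genes 1 fell, Tpst2, which sulfates tyrosines such as those at the tip of PSGL-1. It was 8.20 ± 0.23 in saline and 7.52 ± 0.28 in OVA, a difference of -0.68 (SE 0.17, limma adjusted p = 0.0413), not called without saline 1, saline 3, saline 4 or any single OVA library (-0.77 to -0.52). Tpst2 kept its call without saline 1 and 2 (-0.85) and lost it without saline 3 and 4 (-0.51). Of 17 genes that start O-glycans and 13 that supply sialic acid and fucose, 0 were called. Galnt1, which starts O-glycans, was 7.34, 7.24, 8.07 and 8.24 in saline and 8.55, 8.70 and 8.63 in OVA. Its groups did not overlap, with a difference of 0.90 (SE 0.24, limma adjusted p = 0.0559), and it was called higher in 8 of 17 alternatives, among them without saline 1 and 2 (0.47). Galnt4, of the same family, differed by -0.51 (SE 0.13, limma adjusted p = 0.0562), with no overlap, and was called lower in 6 of 17 alternatives, but not without saline 1 and 2 (-0.55). Cmas, which activates sialic acid, was 9.91 ± 0.28 and 9.45 ± 0.26 and was not called (-0.45, limma adjusted p = 0.18), but was called lower without saline 1 and 2 (-0.69). Gne, the first enzyme of sialic acid synthesis, and the Golgi carriers Slc35a1 and Slc35c1, for sialic acid and fucose donors, differed by 0.03, 0.40 and -0.17. Of 8 genes that remove or modify these sugars 2 rose: Casd1, which acetylates sialic acid, by 1.38 (SE 0.11, limma adjusted p = 0.000156), and Npl, which degrades it, by 0.70 (SE 0.17, limma adjusted p = 0.0456). Casd1 kept its call without saline 1 and 2 (1.29). Npl was not called without saline 1, saline 2 or any single OVA library (0.65 to 0.73) or without saline 1 and 2 (0.69). The sialidase Neu1 differed by -0.13.

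Markers listed for other cells moved with the groups in part. Of 12 alveolar macrophage markers 8 were higher in OVA (Chil3, Car4, Fabp5, Pparg, Ctsk, Mrc1, Itgax and Atp6v0d2) and 0 lower, and their mean level was 6.31 to 6.63 in saline and 8.11 to 8.74 in OVA, with Marco, at 6.10 and 5.91, and Fabp4, at 5.25 and 5.67, not called. Of 9 neutrophil markers 2 were higher (Ngp and Ltf), with mean levels of 7.64 to 8.02 and 7.82 to 8.35, and Retnlg was 12.71 and 12.64. Mean levels were 6.05 to 6.14 and 6.04 to 6.14 for 6 B cell markers, with 0 called, and 6.94 to 7.34 and 6.81 to 7.02 for 7 T cell markers, with 0 called. Among the T cell markers, Cd3d was 9.21 in saline and 8.07 in OVA, with every OVA library below every saline library. Its difference of -1.14 (SE 0.31, limma adjusted p = 0.0645) was not called, and the median difference of the T cell list was -0.22. Of 6 monocyte and 6 epithelial markers 1 each was higher (Fn1 and Sftpc), and of 5 endothelial markers 0 were called. Whether the marker lists tell eosinophils from alveolar macrophages was not tested. The part of other cells in the values of Fut4, St3gal5, St3gal6 and Ugcg was not tested either.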

How the data were processed

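The authors deposited log2 values made with RMA (robust multi-array averaging), as the submitters' processing notes name it, on the mouse gene 1.0 ST array named in the file headers. Its version was not stated. RMA brings arrays to a common distribution, so a shift shared by most genes is removed before any comparison. A second deposited table gave the gene symbols, while its 7 columns of values carry names found in no label and were not used. Symbols were updated through RefSeq names (16753 probe sets by accession, 1290 by symbol, 670 by synonym, 976 left as given). For genes with several probe sets the one with the highest mean was taken, which gave 18139 genes, and no filter on dim genes was used.

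Groups were compared with limma 3.58.1 (R 4.3.3; lmFit, eBayes, group as the only term), with 2-sided p adjusted by Benjamini-Hochberg over all genes and called under 0.05. The fit was tested on simulated data. The genes described and all lists were chosen with earlier results of these data known. Named were the 10 genes, every called list gene (up to 6 a list), 14 set partners, the 3 most alike genes and the called markers. The rule's 2 highest markers of each list are mostly given as list means. B4galt6, Gm2a, Glb1, Galnt1, Galnt4, Marco, Fabp4, Ccr3, Prg3, Alox15, Csf2rb, Il5ra, S100a8, S100a9 and Cd3d were added after their values were seen. A few genes of the lists are not reported here. The number of arrays limits the precision.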

Additional observations from a re-analysis of the deposited data

Results flagged for a closer look

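The saline value of B4galnt1, which extends GM3, was 8.19 in saline 2, far from the other saline libraries at 8.93 to 9.08. The gap to the nearest library was 0.831 of the range of the group. This was 1 of 32 named genes examined in this way, and chance sets apart about 1 in 20 groups.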

How the results depend on the processing

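Of 17 alternatives, all 17 kept St3gal5 called lower. The direction was the same in all for Fut4, St3gal1, St3gal6 and Gcnt1, and calls were made in 13, 5, 9 and 4 of them. Among named single genes, 425 values kept direction and side of the threshold, 29 changed sign without being called in either fit, 74 lost a call and 15 gained one, and no called value changed sign. The causes were not tested, beyond fewer libraries where some were left out.

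Over all genes 964 were called higher and 213 lower. Array weights gave 1650 higher and 676 lower, leaving out saline 3 and 4 gave 2192 and 987, and treat against a 1.5-fold change gave 102 and 7. The weight was 5.02 for OVA 2, 0.92 and 0.88 for OVA 1 and 3, and 0.41 to 1.41 in saline. The weighted fit thus leans on OVA 2 for its OVA level. Lower counts were 512 (928 higher) after a second quantile normalization, 118 after median centring, 473 (1109 higher) after cyclic loess and 404 (817 higher) without saline 1 and 2. Leaving out single libraries gave 372 to 1221 higher and 67 to 266 lower. Of the 10 genes, 1 was called higher after median centring, with the filter on dim genes (which removed Fut7) and with array weights, 2 were higher without saline 3 and 4, and 1 was lower by treat; without single libraries 0 were higher and 1 to 4 lower. Of the 111 list genes, 2 were higher and 3 lower after median centring, 11 lower after quantile normalization and after cyclic loess, 14 higher and 12 lower without saline 3 and 4, and 2 higher and 0 lower by treat; without single libraries 2 to 8 were higher and 3 to 8 lower.

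With the replicate number as a block (the replicate block), 1361 genes were higher and 320 lower, and 3 of the 10 genes lower; Gcnt2 and Selp were not called. The block also takes saline 4, which has no OVA partner, out of the differences; without saline 4 and with no block 1221 genes were higher and 229 lower, and Gcnt2 and Selp were not called either. Same-numbered libraries deviated together with correlations of 0.273, -0.137 and 0.241, and differently numbered ones with correlations from -0.475 to 0.454. So few values cannot decide whether the numbers pair the libraries.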
